A study of Mus musculus with 91 samples.

Results

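Arc, Npas4, Homer1 and Bdnf are 4 genes whose transcription in neurons follows synaptic activity, and they were taken by Ensembl identifier from the 14355 genes of a count table of ribosome-bound mRNA from the mouse nucleus accumbens. Arc (ENSMUSG00000022602), Npas4 (ENSMUSG00000045903), Homer1 (ENSMUSG00000007617) and Bdnf (ENSMUSG00000048482) were all present in the table. The D1 libraries came from Drd1-Cre mice and the D2 libraries from A2a-Cre mice. Both lines were crossed to RiboTag mice, in which Cre switches on a hemagglutinin-tagged ribosomal protein (HA-Rpl22), and all libraries are pull-downs with an anti-HA antibody. Male and female mice over 10 weeks old lived on 12 h of light and 12 h of dark, and tissue was taken at Zeitgeber time (ZT, hours after lights on) 2, 6, 10, 14, 18 and 22. There were 45 D1 libraries (22 male, 23 female) and 46 D2 libraries (23 male, 23 female), in 24 groups of 3 or 4, each a pool of 2 mice. Cell type and Cre line cannot be told apart in this design. The other identifiers of the table could not be paired with gene names, so the labelled cell types were not checked against marker genes and the part of RNA from other cells was not tested. In bulk pull-downs, fewer cells of a type and less RNA per cell cannot be told apart.

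When excitatory input raises calcium in a spiny neuron, kinases that act on the factor CREB switch on a small set of genes within minutes. Npas4 is a transcription factor of the bHLH-PAS family that depends on neuronal activity, and in mouse neurons it is known to act on Bdnf among other targets. Arc is a protein that drives the removal of AMPA receptors from the synapse, and Homer1 encodes postsynaptic scaffold proteins that bind group I metabotropic glutamate receptors. A short Homer1 form, Homer1a, is made after activity and competes with the long forms, and counts per gene add both together. Bdnf is a secreted neurotrophin that acts through the receptor TrkB.

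The promoter windows of the members are shown because CREB binds the cAMP response element (CRE, TGACGTCA), whose core TGACG is the motif searched here. Windows reach from 250 bases before to 50 bases after an annotated start (RefSeq, GRCm38.p6). 3 of the 4 members had windows: 1 for Npas4, 2 for Homer1 and 7 for Bdnf. Arc, at chr15:74669081-74672570, was not matched. Capitals mark TGACG on either strand (CGTCA on the strand printed). The Npas4 window (chr19:4989922-4990221, minus strand) held 2 matches, the first Homer1 window (chr13:93303507-93303806, plus strand) held 3, and the third Bdnf window (chr2:109692186-109692485, plus strand) held 1.
Npas4: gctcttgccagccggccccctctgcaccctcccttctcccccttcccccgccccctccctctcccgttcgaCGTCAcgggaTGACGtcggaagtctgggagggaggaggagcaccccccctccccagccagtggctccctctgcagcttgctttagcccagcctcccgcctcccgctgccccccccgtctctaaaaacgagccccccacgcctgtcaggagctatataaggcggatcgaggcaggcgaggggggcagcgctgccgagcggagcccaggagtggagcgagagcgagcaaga
Homer1: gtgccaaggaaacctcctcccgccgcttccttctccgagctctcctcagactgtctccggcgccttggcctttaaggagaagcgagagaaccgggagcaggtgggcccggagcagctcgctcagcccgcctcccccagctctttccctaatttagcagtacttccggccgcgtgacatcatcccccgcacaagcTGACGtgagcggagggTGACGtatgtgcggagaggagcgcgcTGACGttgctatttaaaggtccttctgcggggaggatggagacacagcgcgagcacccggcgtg
Bdnf: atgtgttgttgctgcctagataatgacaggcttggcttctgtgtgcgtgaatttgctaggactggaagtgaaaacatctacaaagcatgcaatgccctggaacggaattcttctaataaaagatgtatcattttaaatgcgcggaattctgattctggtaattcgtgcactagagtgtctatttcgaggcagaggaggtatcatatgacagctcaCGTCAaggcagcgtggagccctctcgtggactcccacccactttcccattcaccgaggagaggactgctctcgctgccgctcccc
The second Homer1 window and the other 6 Bdnf windows held 0 matches. Of all 32851 windows, 20.8% held TGACG at least once, and 1.03% held it at least 3 times as the first Homer1 window did. The whole element TGACGTCA stood in 0 of the members' windows and in 1.79% of all windows. The E-box CACGTG, the sequence bound by the clock factors CLOCK and BMAL1, was found in 0 of the members' windows and in 7.15% of all windows. A match describes letters in a window and is not a measured binding site.

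Libraries held between 6872165 and 24665262 counts, with a median of 14047068. Each title carries a letter (A to E). In D2 libraries, all 243 pairs with the same letter deviated from their group means together (r over 0.1), so D2 results are given with the letter as a block where that changes a call. In D1 libraries 149 of 223 such pairs did. 3 D1 male libraries stood apart (ZT10 B, ZT18 D and ZT22 B), with 205 to 789 genes at 0 against 0 to 3 in the other 88 libraries. Where leaving them out moved a call, a highest time or a count of series, both values are given. Levels are CPM, the counts of a library scaled to a common total after TMM adjustment. The labels do not say whether libraries share a litter or a day, so p-values measure the spread between these libraries.

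Arc was higher in the dark than in the light in both cell types. In D1 neurons its mean level was 61.7 ± 12.8 CPM at ZT2 (n = 8), 50.7 ± 11.0 at ZT6 (n = 8), 75.2 ± 25.7 at ZT10 (n = 8), 101.4 ± 26.8 at ZT14 (n = 7), 97.8 ± 32.1 at ZT18 (n = 6) and 105 ± 33.4 at ZT22 (n = 8), with SD. In D2 neurons it was 73.1 ± 21.2 CPM at ZT2 (n = 7), 61.9 ± 14.7 at ZT6 (n = 7), 67.5 ± 31.3 at ZT10, 99.9 ± 20.6 at ZT14, 114 ± 24.8 at ZT18 and 90.0 ± 32.4 at ZT22 (n = 8 from ZT10 on). All 3 dark means lay above all 3 light means in both cell types. The highest mean was 2.06 times the lowest in D1 neurons (ZT22 over ZT6) and 1.84 times in D2 neurons (ZT18 over ZT6). Without the 3 D1 libraries that stood apart, the highest D1 mean was at ZT18, at 104 ± 31.0 CPM (n = 5), and 2.06 times the lowest.

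Single libraries overlapped between times. In D1 neurons the lowest, median and highest library had 41.7, 58.8 and 86.6 CPM at ZT2, 38.7, 51.1 and 68.0 CPM at ZT6, and 39.7, 73.8 and 114 CPM at ZT10. In the dark they had 56.9, 107 and 141 CPM at ZT14, 64.9, 96.2 and 144 CPM at ZT18, and 63.2, 103 and 157 CPM at ZT22. The light libraries of D1 neurons thus reached into the dark range, up to 114 CPM at ZT10, and none came near its top of 157 CPM. In D2 neurons the same 3 values were 49.7, 79.0 and 100.1 CPM at ZT2, 48.0, 56.8 and 91.8 CPM at ZT6, and 44.4, 57.8 and 141 CPM at ZT10. In the dark they were 66.7, 101 and 134 CPM at ZT14, 88.02, 100.02 and 148 CPM at ZT18, and 45.8, 89.0 and 159 CPM at ZT22. The D2 libraries of ZT18 began just below the highest library of ZT6, and the highest ZT10 library, the D2 male of letter A with 141 CPM, stood above every ZT14 library. The light and dark libraries of D2 neurons overlapped widely. In the order of the means from high to low, 0 neighbouring times differed by more than the larger of their SDs, in either cell type and for any of the 4 genes.

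**Figure D1:**
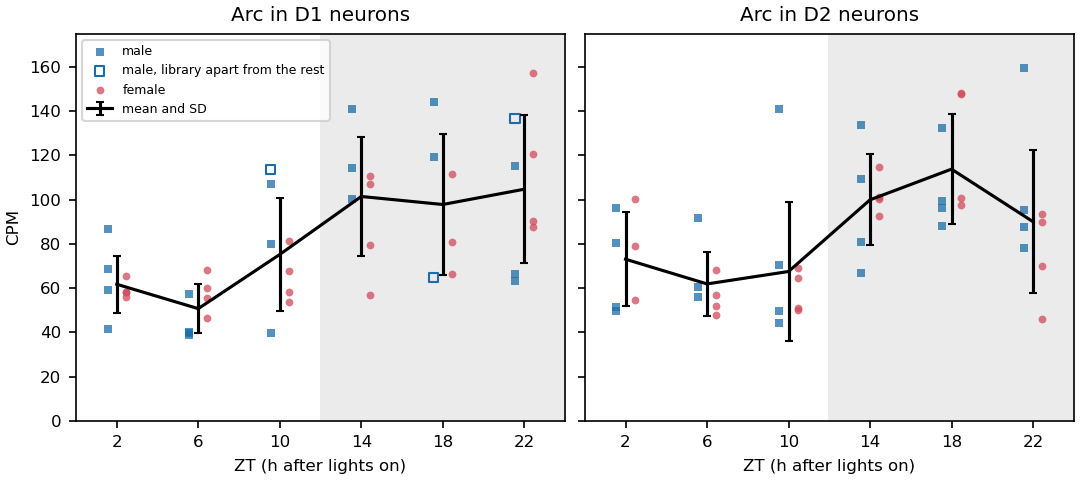
Arc level in CPM on the vertical axis against ZT in hours on the horizontal axis, D1 neurons left and D2 neurons right. Squares are male and circles female libraries, open squares are the 3 libraries that stood apart, the line joins the means with SD, and grey marks the dark. The dark means (90.0 to 114 CPM) lie above the light means (50.7 to 75.2 CPM), with overlap of single libraries.

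A cosine curve of 24 h, fitted for each cell type and sex in edgeR, described the daily course. Values for a whole cell type come from the average of the male and female curves. The amplitude, on a log2 scale, runs from the curve's mean to its peak. In D1 neurons Arc had an amplitude of 0.55 ± 0.09 (SE) with a peak at ZT17.5 ± 0.58 h, a 2.13-fold change between trough and peak (edgeR quasi-likelihood test, adjusted p = 0.001245). In D2 neurons the amplitude was 0.44 ± 0.08 with a peak at ZT17.9 ± 0.73 h, a 1.84-fold change (edgeR adjusted p = 0.003832). Across all genes 0.495% passed in D1 neurons and 2.94% in D2 neurons, and Arc was the only member called in either. Arc ranked 12th of 14355 genes by p in D1 neurons and 110th in D2 neurons. Its amplitude was the 10th largest of 71 called genes in D1 neurons and the 25th largest of 422 in D2 neurons, where the median of the called genes was 0.31 in D1 and 0.17 in D2 neurons. Of those called genes, 25 of 71 in D1 and 144 of 422 in D2 neurons peaked between ZT16 and ZT20 as Arc did.

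The 3 libraries that stood apart had 114 CPM of Arc (ZT10 B), 64.9 CPM (ZT18 D) and 137 CPM (ZT22 B). The call in D1 neurons held without them, with an amplitude of 0.58 and an edgeR adjusted p of 0.0001637. It was lost without the 12 libraries of letter A (0.50, edgeR adjusted p = 0.0711). The D2 call was lost without letter B (0.41, edgeR adjusted p = 0.0948), C (0.40, 0.0888) or D (0.43, 0.0701). It was also lost with time as a factor in place of the cosine (0.88 from lowest to highest time, edgeR adjusted p = 0.0574). None of these fits had the letter as a block, and leaving out a letter removed 10 or 12 D2 libraries. With the letter as a block, Arc in D2 neurons had an amplitude of 0.44 ± 0.06 and an edgeR adjusted p of 9.112e-06, in a fit that called 22.3% of all genes.

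The same libraries were then divided into letter series, which are not new samples. Each series was a set of libraries of 1 cell type, sex and letter. It needed at least 2 libraries in the dark and 2 in the light. The D1 males of letter B and the library of letter E did not qualify. The dark mean of Arc was above its light mean in 7 of 7 D1 series, with a ratio of 1.17 to 2.16 and a median of 1.57. The same held in 8 of 8 D2 series, with a ratio of 1.14 to 1.94 and a median of 1.55. Among all genes, 2.99% in D1 and 4.6% in D2 neurons were higher in the dark in every series. The lowest D2 ratio came from the male series A, at 120 CPM in the dark against 104 CPM in the light, and that series held the ZT10 library of 141 CPM.

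**Figure D2:**
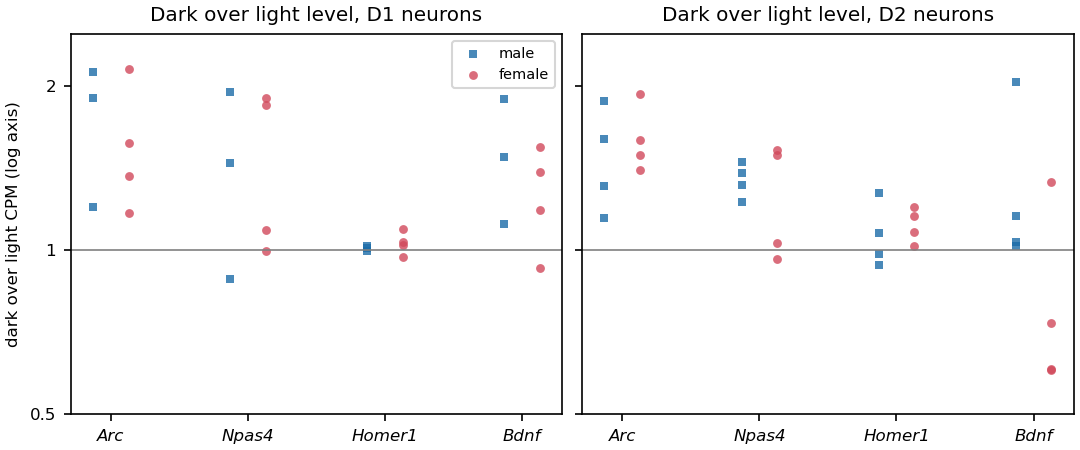
Mean level in the dark (ZT14 to ZT22) over mean level in the light (ZT2 to ZT10) on a log axis, for each letter series of libraries, by gene, D1 neurons left and D2 neurons right. Squares are male and circles female series, and the line marks equal levels. Arc lies above the line in 7 of 7 D1 and 8 of 8 D2 series. Homer1 lies between 0.941 and 1.27, and its highest D2 ratios pass the lowest D2 ratio of Arc (1.14).

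The mean levels of Homer1 stayed close together over the day. Its mean level in D1 neurons was 399 ± 34.2 CPM at ZT2, 364 ± 27.0 at ZT6, 328 ± 32.3 at ZT10, 363 ± 40.4 at ZT14, 389 ± 28.3 at ZT18 and 373 ± 37.7 at ZT22 (SD, n as for Arc). In D2 neurons it was 397 ± 42.0, 348 ± 19.3, 356 ± 52.0, 394 ± 24.7, 417 ± 38.3 and 388 ± 29.8 CPM at the same times. The highest mean was 1.21 times the lowest in D1 neurons (ZT2 over ZT10) and 1.197 times in D2 neurons (ZT18 over ZT6). In D1 neurons libraries ranged between 278 and 371 CPM at ZT10, the time of the lowest mean, and between 345 and 439 CPM at ZT2. Those ranges shared only the stretch from 345 to 371 CPM. The fitted amplitude was 0.10 ± 0.03 with a peak at ZT22.6 ± 1.25 h in D1 neurons (edgeR adjusted p = 0.256). In D2 neurons it was 0.11 ± 0.03 with a peak at ZT19.3 ± 1.03 h (edgeR adjusted p = 0.0770). With the letter as a block the D2 value was 0.11 ± 0.02 and passed the threshold (edgeR adjusted p = 0.001481, with 22.3% of all genes called). For comparison, the median amplitude of all genes was 0.09 in D1 and 0.07 in D2 neurons.

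Npas4, the transcription factor of the set, had its highest mean at ZT22 and its lowest at ZT6 in both cell types. In D1 neurons the mean was 17.6 ± 5.66 CPM at ZT2, 17.5 ± 6.98 at ZT6, 24.5 ± 7.26 at ZT10, 26.4 ± 6.96 at ZT14, 26.3 ± 10.4 at ZT18 and 28.4 ± 5.64 at ZT22. In D2 neurons it was 21.6 ± 7.89, 18.5 ± 3.77, 19.1 ± 4.22, 24.0 ± 7.52, 25.1 ± 5.27 and 25.2 ± 4.50 CPM at the same times. Without the 3 libraries that stood apart, the highest D1 mean was at ZT18 instead, at 29.8 ± 6.69 CPM (n = 5), and the lowest was still at ZT6. The lowest, median and highest D1 library had 19.0, 29.9 and 34.1 CPM at ZT22, against 9.25, 16.2 and 27.3 CPM at ZT6. Most of the ZT22 libraries lay above the ZT6 range, and the male libraries of letters C (20.8 CPM) and D (19.0 CPM) fell inside it.

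The Npas4 amplitude was 0.37 ± 0.10 with a peak at ZT16.9 ± 1.02 h in D1 neurons, and it did not pass over all genes (edgeR adjusted p = 0.193). The D1 male library ZT18 D, one of the 3 that stood apart, had the lowest Npas4 level of all 91 libraries at 8.88 CPM. Without those 3 libraries the Npas4 amplitude was 0.42 and the edgeR adjusted p was 0.0358. Without the 12 libraries of letter A it was 0.22 (edgeR adjusted p = 0.612). In D2 neurons the amplitude was 0.25 ± 0.08 with a peak at ZT19.1 ± 1.18 h (edgeR adjusted p = 0.162). With the letter as a block it was 0.26 ± 0.06 and passed (edgeR adjusted p = 0.005783, with 22.3% of all genes called). The dark mean lay above the light mean in 5 of 7 D1 series and 7 of 8 D2 series. Without the 3 libraries that stood apart it lay above in 6 of 7 D1 series, as the male series of letter D moved to a ratio of 1.12, against 0.886 with them. Homer1 was higher in the dark in 5 of 7 D1 and 6 of 8 D2 series. Bdnf was higher in the dark in 6 of 7 D1 and 5 of 8 D2 series. The Homer1 and Bdnf counts were the same without those 3 libraries. The share of all genes at such counts was not computed.

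**Figure D3:**
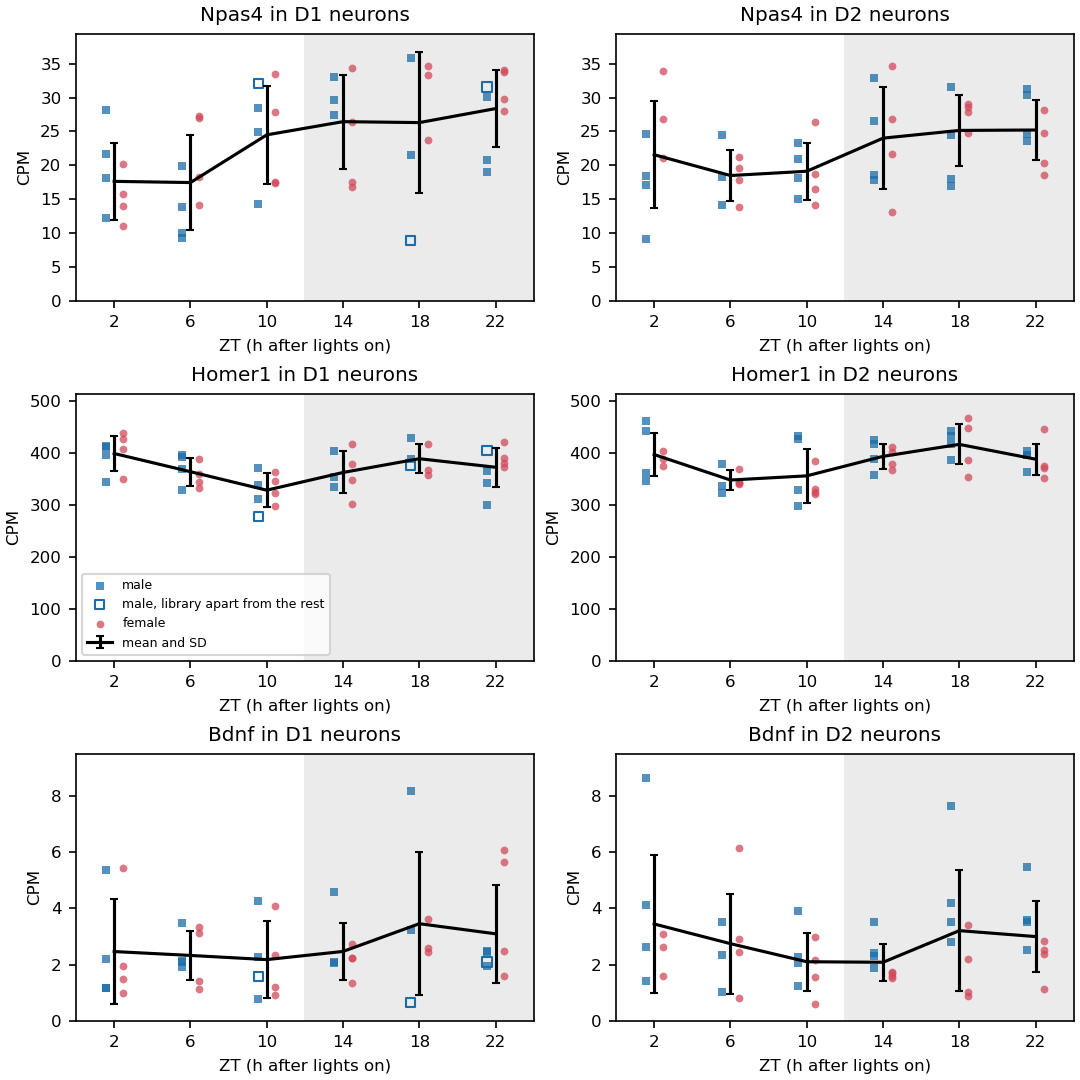
Levels in CPM on the vertical axes against ZT in hours for Npas4 (top), Homer1 (middle) and Bdnf (bottom), D1 neurons left and D2 neurons right, with symbols, lines and shading as for Arc. Npas4 means in D1 neurons reach 28.4 CPM at ZT22, against 17.5 CPM at ZT6, Homer1 means stay within 328 to 417 CPM, and single Bdnf libraries spread from 0.601 to 8.64 CPM.

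Bdnf was measured on few reads, with 5 to 147 counts per library. In D1 neurons its mean was 2.47 ± 1.85 CPM at ZT2, 2.33 ± 0.882 at ZT6, 2.18 ± 1.36 at ZT10, 2.47 ± 1.02 at ZT14, 3.46 ± 2.53 at ZT18 and 3.10 ± 1.73 at ZT22. In D2 neurons it was 3.45 ± 2.47, 2.75 ± 1.78, 2.10 ± 1.03, 2.08 ± 0.661, 3.21 ± 2.14 and 3.00 ± 1.26 CPM at the same times. The SDs were of the size of the differences between times. The amplitude was 0.30 ± 0.17 in D1 neurons (peak ZT19.6 ± 2.11 h, edgeR adjusted p = 0.553) and 0.34 ± 0.14 in D2 neurons (peak ZT0.14 ± 1.63 h, edgeR adjusted p = 0.476). The D2 value averages males (0.52, peak ZT21.6 ± 1.46 h) and females (0.42, peak ZT3.52 ± 1.88 h), and its peak lies between theirs. Without the 3 libraries that stood apart, the edgeR adjusted p in D1 neurons was 0.470 for Bdnf and 0.369 for Homer1. The rhythm of Bdnf was called in neither cell type.

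**Figure D4:**
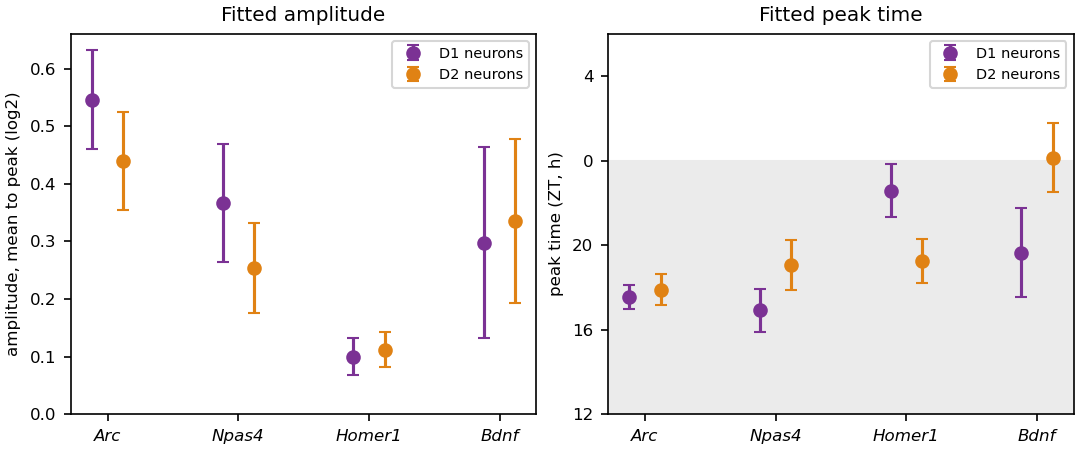
Fitted amplitude on the log2 scale (left) and fitted peak in ZT hours (right) for the 4 genes, with D1 neurons left of D2 neurons in each pair, points for estimates and bars for SE. Arc has the largest amplitudes (0.55 in D1 and 0.44 in D2 neurons), with peaks at ZT17.5 and ZT17.9.

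At an unadjusted p below 0.05, 3 of the 4 members were counted in each cell type (Arc, Npas4 and Homer1), against 12.6% of all genes in D1 and 13.1% in D2 neurons. The daily courses were next compared between the cell types. The difference in rhythm, D1 minus D2, is the length of the difference between the fitted curves. It was 0.12 ± 0.12 for Arc (edgeR adjusted p = 0.864), 0.21 ± 0.13 for Npas4 (0.761), 0.09 ± 0.04 for Homer1 (0.674) and 0.35 ± 0.22 for Bdnf (0.755). 0 of the 4 members passed this test, as did 0.0139% of all genes.

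Mean levels over the day were close in both cell types. Arc averaged 80.8 ± 31.5 CPM across D1 libraries and 85.1 ± 30.3 CPM across D2 libraries (SD, n = 45 and 46). Npas4 averaged 23.3 ± 8.06 CPM across D1 and 22.4 ± 6.07 CPM across D2 libraries. Homer1 averaged 369 ± 39.2 CPM across D1 and 384 ± 41.7 CPM across D2 libraries, and Bdnf 2.63 ± 1.59 CPM across D1 and 2.75 ± 1.64 CPM across D2 libraries. The ranges of single libraries overlapped for all 4 genes. The difference D1 minus D2 on the log2 scale was -0.04 ± 0.09 for Arc, with a 95% interval of -0.21 to 0.13 (edgeR adjusted p = 0.744). It was 0.07 for Npas4 with an interval of -0.11 to 0.26, -0.06 for Homer1 with an interval of -0.12 to 0.01, and -0.00 for Bdnf with an interval of -0.31 to 0.31 (edgeR adjusted p = 0.576, 0.209 and 0.999). 0 of the 4 members were called, and 9.44% of all genes were called higher in D1 and 9.86% higher in D2 neurons. With only 4 members, 0 calls does not set them apart from those shares. The median size of the differences called was 0.26, and the Bdnf interval reaches beyond it on both sides.

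The courses of males and females were fitted separately as the design has both sexes. Arc in D1 neurons had an amplitude of 0.66 ± 0.12 in males (peak ZT16.8 ± 0.68 h, edgeR adjusted p = 0.05415) and 0.47 ± 0.12 in females (peak ZT18.6 ± 0.94 h, 0.745). In D2 neurons it had 0.36 ± 0.12 in males (peak ZT17.9 ± 1.23 h, edgeR adjusted p = 0.512) and 0.52 ± 0.12 in females (peak ZT17.8 ± 0.89 h, 0.0554). In these fits 0 of the 4 members passed, against 0.0418% of all genes in D1 males, 0.0279% in D1 females, 0.237% in D2 males and 0.495% in D2 females. Without the 3 libraries that stood apart, Arc in D1 males passed with an amplitude of 0.73 (edgeR adjusted p = 0.004576). With the letter as a block, Arc in D2 neurons passed in males (0.37, edgeR adjusted p = 0.0190) and in females (0.51, 0.0004911), and Homer1 passed in D2 females (0.12, 0.0193). Those blocked fits called 9.11% of all genes in D2 males and 12.5% in D2 females.

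The sex difference in rhythm itself, male minus female, was tested for each cell type and was called for 0 of the 4 members. For Arc it was 0.33 ± 0.17 in D1 neurons (edgeR adjusted p = 0.9996) and 0.16 ± 0.17 in D2 neurons (1). The largest member value in D2 neurons was that of Bdnf, at 0.66 ± 0.29 (edgeR adjusted p = 1, and 0.32 with the letter as a block, where 0.0209% of all genes passed). By edgeR 0% of all genes passed in D1 neurons (226 genes at an unadjusted p under 0.05, 0 by DESeq2 and 2885 by limma voom). In D2 neurons 0% passed as well (389 genes at an unadjusted p under 0.05, 2 by DESeq2 and 3 by limma voom).

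Mean levels over the day were called different between the sexes for 0 of the 4 members, and for Bdnf in D2 neurons once the letter was a block. Arc averaged 83.5 ± 35.7 CPM in males and 78.2 ± 27.3 CPM in females in D1 neurons (SD, n = 22 and 23), and 87.8 ± 31.4 CPM in males and 82.4 ± 29.6 CPM in females in D2 neurons (n = 23 each). The D1 differences, male minus female, lay between -0.10 and 0.10 on the log2 scale (edgeR adjusted p of 0.699 to 0.944), and 0 of the 4 members were called against 0.0418% of all genes. In D2 neurons they were 0.11 for Arc, -0.09 for Npas4 and 0.04 for Homer1 (edgeR adjusted p = 0.926 each). Bdnf in D2 neurons averaged 3.33 ± 1.85 CPM in males and 2.17 ± 1.18 CPM in females, with medians of 2.82 CPM in males and 2.16 CPM in females. Single libraries overlapped widely, between 1.02 and 8.64 CPM in males and between 0.601 and 6.14 CPM in females. The difference was 0.58 ± 0.20 on the log2 scale and did not pass (edgeR adjusted p = 0.841, with 0.216% of all genes called). With the letter as a block it was 0.56 ± 0.18 and passed (edgeR adjusted p = 0.0433, with 9.45% of all genes called). Without letter A, and without the block, the Bdnf difference was 0.37 (edgeR adjusted p = 0.806). The D2 male libraries of letter A held the highest Bdnf levels of D2 males, at 8.64 CPM (ZT2), 7.64 CPM (ZT18) and 5.47 CPM (ZT22). In D1 neurons Bdnf averaged 2.64 ± 1.71 CPM in males and 2.63 ± 1.49 CPM in females. The test of whether the sex difference itself differed between cell types, D1 minus D2, gave -0.53 ± 0.31 for Bdnf (edgeR adjusted p = 0.849), and 0 of the 4 members passed. By edgeR 0% of all genes passed this test (908 at an unadjusted p under 0.05, 21 by DESeq2 and 0 by limma voom).

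Mean levels by letter went in opposite directions for Arc and Npas4 in D2 neurons. In D1 neurons the means of letters A to D ran from 71.2 to 87.2 CPM for Arc and 21.8 to 24.2 CPM for Npas4. They ran from 349 to 389 CPM for Homer1 and 1.92 to 3.83 CPM for Bdnf. The values that follow are of D2 neurons. Arc averaged 104 ± 33.1 CPM in letter A (n = 12) and 96.9 ± 29.1 CPM in letter B (n = 10), and 69.4 ± 24.8 CPM in letter C and 72.4 ± 20.0 CPM in letter D (n = 12 each). Homer1 was also higher in letters A and B (409 ± 33.6 and 409 ± 44.7 CPM) than in C and D (362 ± 37.8 and 359 ± 21.0 CPM). Npas4 averaged 19.5 ± 6.06 and 19.0 ± 4.25 CPM in letters A and B, and 24.1 ± 5.92 and 26.3 ± 4.97 CPM in C and D. The libraries of letters A to D spanned all or nearly all times, while letter E was 1 D1 library. The labels do not say what a letter stands for. The spread over letters was not tested.

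Arc and Npas4 varied together in D1 libraries of the same group. The Pearson correlation of their deviations from the group means was 0.79 in D1 neurons (n = 45 libraries), 0.76 without the 3 libraries that stood apart (n = 42), and -0.13 in D2 neurons (n = 46). With the letter means also removed it was 0.86 in D1 and 0.50 in D2 neurons. Arc and Homer1 had 0.38 in D1 and 0.73 in D2 neurons, and 0.21 and 0.47 after removal of the letter means. The median correlation of Arc with all genes was -0.02 in D1 and -0.01 in D2 neurons, for deviations from the group means with letter means kept. A signed median does not show how many genes reach values like these, and that share was not computed. These points share library, depth and letter, and the values are descriptions.

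Over the 24 group means of log2 CPM, Npas4 was the 20th most alike to Arc of 14354 genes, with r = 0.77. Homer1 had r = 0.39 and Bdnf r = 0.31 with Arc. Among the 11809 genes with a mean of at least 5 CPM, the pair most alike to Arc were ENSMUSG00000023034 (r = 0.91) and ENSMUSG00000085609 (r = 0.89), which the table does not name. The highest correlation was 0.85 for Npas4, 0.87 for Homer1 and 0.81 for Bdnf, each with a gene outside the set. The 24 points share cell types, sexes, times and letters.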

How the data were processed

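The deposited table holds raw, unnormalised counts of reads per gene. The submitters' processing notes list FastQC 0.11.7, HTSeq 0.10.0 and HISAT2 with no version, and the builds GRCm38 and GRCh38 are named without a role. By its name the table was filtered by log CPM, at a level not given in the sources. It lists Ensembl identifiers only, and 0 of 14355 could be named through the reference's 49997 entries, so the planned lists of related genes and cell type markers were not scored. The members and lists were chosen with earlier results of these data known.

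Counts were tested in R 4.3.3 with edgeR 4.0.16 (TMM, quasi-likelihood F-test, all genes, Benjamini-Hochberg adjustment, threshold 0.05). Means and cosine and sine terms (24 h period) were separate for each combination of sex and cell type. Fits used the D1 libraries, the D2 libraries or all 91. Intervals of 95% are 1.96 SE. Tried as alternatives were limma 3.58.1 (voom, quality weights), DESeq2 1.42.0, other size factors, a depth covariate, time as a factor, the letter as a block, and leaving out each letter or the 3 libraries that stood apart (for the order of times and the dark and light series, chosen after seeing the data). For pairing, the correlation of deviations from group means was over 0.1 in 243 of 243 same-letter D2 pairs (lowest 0.19, median 0.72) and in 149 of 223 D1 pairs (lowest -0.61). Of 129 pairs of libraries within groups, 0 agreed within sampling noise (lowest mean chi-square per gene 4.24). Likeness was ranked by Pearson correlation of group means, with the leading pair of genes named for Arc only, because identifiers without names were limited. The fit was also run on simulated counts with known rhythms and differences, and the outcome is not reported here. Those counts held no letter effect, so they cannot show how fits without the block behave where letters share deviations.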

Additional observations from a re-analysis of the deposited data

Results flagged for a closer look

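Dixon's test was applied to the CPM of the 6 to 8 libraries of 1 cell type and time. In 5 of 48 combinations of gene and group it found a library far from the others. For values from a single normal population, chance gives about 1 in 20. These groups pooled both sexes and all letters, so that rate may not apply to them. For Arc these were the D2 male library of letter A at ZT10 with 141 CPM and that of letter A at ZT22 with 159 CPM. For Bdnf they were the D2 male library of letter A at ZT2 with 8.64 CPM, the D2 male library of letter C at ZT14 with 3.51 CPM and the D1 male library of letter D at ZT14 with 4.6 CPM. All 5 were male libraries, and each was the highest of its group.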

How the results depend on the processing

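Of 624 values of the 52 member results under the alternatives, 589 stayed on the same side of the threshold. Of the others, 5 lost the call (all of Arc) and 30 gained one. A direction was judged only if either value passed, and 0 of those reversed. Values that passed in neither fit could change sign, as the Arc cell type difference did without letter A (0.07, against -0.04). CPM from plain totals stayed within 1 SD for 48 of 48 group means. The cause was not tested, except that leaving out a letter removes samples by construction.

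With a letter left out, the Arc amplitude was 0.50 to 0.62 in D1 neurons (call lost without A, 0.50), 0.40 to 0.52 in D2 neurons (lost without B, 0.41, C, 0.40, and D, 0.43), 0.50 to 0.80 in D1 males (gained without E, 0.66) and 0.46 to 0.57 in D2 females (gained without A, 0.57). These fits did not have the letter as a block. Without letter A, several values not called fell by more than 1.5 times. Among these were Npas4 in D1 neurons (0.22) and in D1 males (0.17 from 0.40). Bdnf fell in D1 males (0.05 from 0.30) and in D2 females (0.27 from 0.42). So did the rhythm difference D1 minus D2 of Bdnf (0.11 from 0.35) and of Npas4 (0.10 from 0.21), and the Bdnf sex difference in D2 neurons (0.37). Other values not called rose, such as the Bdnf sex difference in D1 neurons (0.17 from 0.04). With time as a factor the D2 Arc value was 0.88 and not called. Without the 3 libraries that stood apart, Npas4 in D1 neurons (0.42, and 0.40 with the replicate block as well) and Arc in D1 males (0.73 and 0.74) gained calls. Leaving those 3 out was also tried, after seeing the data, on the order of times and the dark and light series of D1 neurons. The highest D1 mean of Arc and of Npas4 then stood at ZT18, and Npas4 was higher in the dark in 6 of 7 series. With the replicate block alone, calls were gained by Npas4 (0.26) and Homer1 (0.11) in D2 neurons, Arc in D1 males (0.68), D2 females (0.51) and D2 males (0.37), Homer1 in D2 females (0.12) and the Bdnf sex difference in D2 neurons (0.56). The block changed no other call. The depth covariate added Homer1 in D2 neurons (0.11), Arc in D1 males (0.66) and Arc in D2 females (0.51), and DESeq2 added the same 3 (0.11, 0.66 and 0.52). Limma voom added Npas4 in D1 neurons (0.46), Homer1 in D2 neurons (0.14), the Homer1 rhythm difference D1 minus D2 (0.13), Arc (0.50), Npas4 (0.48) and Homer1 (0.12) in D1 females, Arc in D1 males (0.73) and D2 females (0.55), and Arc (0.54), Homer1 (0.17) and Bdnf (0.70) in D2 males.

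The number of genes called rhythmic moved by more: 71 in D1 neurons by edgeR, against 13 (without letter C) to 717 (limma voom), and 422 in D2 neurons, against 55 (without C) to 3198 (replicate block). The ranges were 0 to 2266 for the rhythm difference D1 minus D2 (2 by edgeR), 1 to 2524 in D1 females (4), 0 to 89 in D1 males (6), 7 to 1799 in D2 females (71) and 3 to 4357 in D2 males (34). For mean levels they were 2 to 1042 for sex in D1 neurons (6), 7 to 1357 for sex in D2 neurons (31) and 1767 to 8248 for cell type (2770). Bdnf rested on 5 to 147 counts in a library.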
